A study of Mus musculus with 46 samples.

Results

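Fev, Lmx1b, Gata2, Gata3, En1 and En2 encode transcription factors of serotonin neurons and of the rostral hindbrain. They were chosen by name, and all 6 were among the 15499 genes of the tables. Their RNA was measured by sequencing in the dorsal raphe nucleus, a serotonin cell group of the brainstem, in 46 libraries from female F1 hybrid mice. The parents were of the C57 and CAST strains, crossed in both directions (F1i and F1r); whether C57 or CAST mothers bore the F1i litters is not in the labels. There were 7 F1i and 7 F1r libraries at P5 (P for postnatal day), 7 and 7 at P15, and 9 and 9 from adults, whose age in days is not given. No allele, transgene or treatment beyond the hybrid genome is named for any group. Each library had a C57 count and a CAST count for each gene, so that both the total level and the share of the CAST allele could be read.

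Serotonin neurons are born in the ventral hindbrain, where Gata2, Gata3 and Lmx1b act ahead of Fev in the cascade that fixes their fate. Fev, also known as Pet-1, is an ETS factor found in the brain almost only in serotonin neurons, where it drives genes such as Tph2 and Slc6a4 and is needed into adult life. Lmx1b is a LIM homeodomain factor needed by the same neurons, and it is also used by dopamine neurons. Gata2 and Gata3 are zinc finger factors that also serve GABA neurons of the midbrain and hindbrain, together with Tal1. En1 and En2 are homeodomain factors of the midbrain and the most rostral hindbrain, where the dorsal raphe arises, and En2 is also expressed in the cerebellum.

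The libraries held between 3692778 and 13085952 counts, and the CAST allele took 50.1 to 52.2% of them. The serotonin neuron effector list (enzymes, transporters and receptors of mature serotonin neurons) named 12 genes, of which 10 were measured. All 10 were detected at every age. So were all measured genes of the cerebellar and endothelial lists, so detection by itself does not mark the tissue. The cell makeup moved with age. The summed level of 7 oligodendrocyte markers was 1742 to 2931 CPM at P5, 17597 to 31083 CPM at P15 and 7169 to 11635 CPM in adults (CPM, counts scaled by TMM to a common library size). For 3 markers of immature neurons the sums were 3501 to 4273, 444 to 513 and 312 to 389 CPM. The balance of GC-rich and GC-poor transcripts moved with age too. Among 11296 genes, the decile with the highest GC content exceeded the decile with the lowest by a mean log2 difference of 0.25 in P5 libraries, -0.81 in those from P15 and -0.33 in adult ones. In these bulk samples, fewer cells of a type and less RNA per cell cannot be told apart. Age also cannot be told apart from whatever separates the 3 tables, 1 for each age.

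The stretch of 250 bases before the annotated start is shown for Fev, for Lmx1b and En1, and for Tph2. Tph2 is the enzyme gene of serotonin synthesis, which Fev is known to drive. The levels of Lmx1b and En1 correlated with Fev between libraries (r = 0.64 and 0.80). So did those of Gata3 (0.72), En2 (0.55) and Gata2 (0.53), whose stretches are not printed. The sequences are RefSeq's, of the build GRCm38.p6. The promoter set used here held 5 of the 6 members and had no entry for En2. The searches covered both strands and 3 short words. The word GATA is the core bound by GATA factors. The word TAATTA is a homeodomain core. The word CCGGAA is a form of the ETS core, and other forms were not searched or marked. Capitals mark the matches, which do not overlap each other.
Fev, chr1:74885409-74885658, minus strand: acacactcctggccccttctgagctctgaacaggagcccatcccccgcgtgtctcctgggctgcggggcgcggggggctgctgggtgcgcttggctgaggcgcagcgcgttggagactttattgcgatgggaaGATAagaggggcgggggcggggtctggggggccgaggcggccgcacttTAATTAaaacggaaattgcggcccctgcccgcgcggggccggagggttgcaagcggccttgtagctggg
Lmx1b, chr2:33641099-33641348, minus strand: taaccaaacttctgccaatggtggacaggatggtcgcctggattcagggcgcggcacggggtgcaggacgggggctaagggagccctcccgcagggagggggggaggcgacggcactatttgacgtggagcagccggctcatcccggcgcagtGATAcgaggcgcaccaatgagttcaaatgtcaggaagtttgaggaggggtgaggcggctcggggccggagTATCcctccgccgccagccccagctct
En1, chr1:120602237-120602486, plus strand: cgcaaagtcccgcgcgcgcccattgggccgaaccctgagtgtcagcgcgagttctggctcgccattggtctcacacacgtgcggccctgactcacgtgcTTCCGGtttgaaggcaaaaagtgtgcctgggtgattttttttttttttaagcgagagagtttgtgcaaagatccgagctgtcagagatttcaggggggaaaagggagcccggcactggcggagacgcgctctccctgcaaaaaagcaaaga
Tph2, chr10:115185023-115185272, minus strand: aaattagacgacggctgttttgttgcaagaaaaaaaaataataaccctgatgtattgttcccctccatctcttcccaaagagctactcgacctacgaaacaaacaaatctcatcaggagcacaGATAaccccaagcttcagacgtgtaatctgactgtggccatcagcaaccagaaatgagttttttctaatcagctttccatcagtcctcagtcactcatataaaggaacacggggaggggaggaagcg
The Fev stretch held GATA 117 bases before the start and TAATTA, which reads the same on both strands, 69 bases before it. In Lmx1b the word GATA stood 97 bases before the start, and its reverse complement TATC 27 bases before it. The En1 stretch held the reverse complement of CCGGAA at 151 bases, and the Tph2 stretch held GATA at 127 bases. Of 32851 promoter windows of this length, 53.6% held GATA, 12% held CCGGAA and 4.84% held TAATTA on either strand. The windows of Gata2 (from both annotated starts) held none of the 3 words, and that of Gata3 held CCGGAA. That of Slc6a4 held TATC, the reverse complement of GATA, 64 bases before the start.

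Fev was higher in adults than at P5, and its level at P15 was the most uneven of the 3 ages. At P5 its level ran from 38.3 to 68.7 CPM (median 50.0, n = 14). At P15 it ran from 15.6 to 64.3 CPM (median 40.9, n = 14), and in adults from 56.8 to 91.5 CPM (median 72.9, n = 18). The adult range overlapped those of both younger ages, and the SD was 36.6% of the mean at P15 against 17.4% at P5 and 14.3% in adults. The adult level was 1.44-fold that at P5, a log2 difference of 0.53 ± 0.11 (SE, adjusted p = 4.15e-05), and it exceeded P15 by 0.93 ± 0.12 (adjusted p = 1.2e-09). From P5 to P15 the fitted value dropped by 0.40 ± 0.13 (adjusted p = 0.00355).

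**Figure D1:**
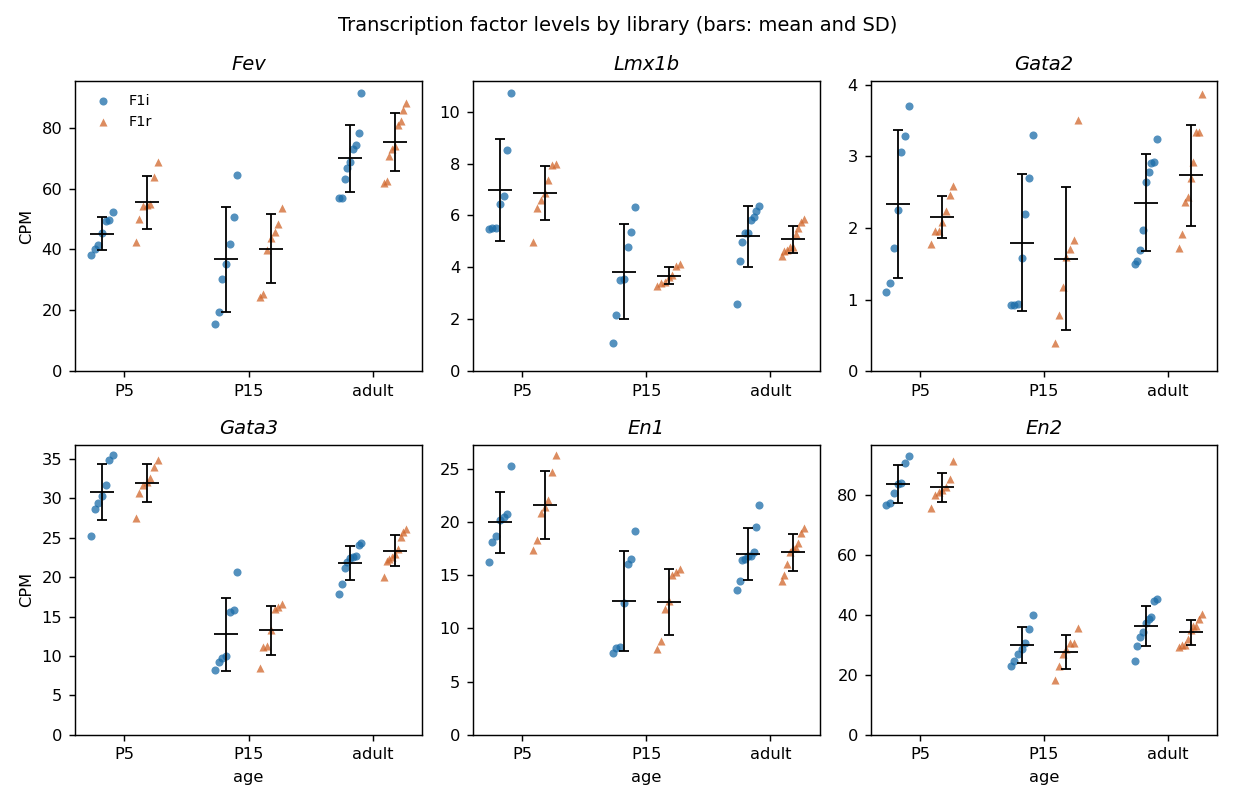
Levels of the 6 transcription factors in CPM on linear axes from 0, for each of the 46 libraries by age, with F1i as circles and F1r as triangles and bars for the mean and SD of each group. The En2 libraries at P5, at 75.5 CPM or more, stand above all later ones, while the P15 libraries of Fev spread from 15.6 to 64.3 CPM.

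The P15 fall of Fev turned with GC content, and so did other changes of the set. The annotated Fev transcripts have a mean GC content of 64.5%, in the highest decile of all genes, and Lmx1b (60.1%) and Gata2 (59.0%) lie in that decile as well. En1 (57.5%) and En2 (56.0%) lie in the decile below, and Gata3 (55.3%) in the eighth of the 10. From P5 to P15 the median gene of the highest decile changed by -0.67 (log2) and that of the lowest decile by 0.42. From P15 to adults these medians were 0.30 and -0.20. After a correction that brings the median of each GC class in each library to the same value, chosen after the data were seen, Fev rose from P5 to P15 by 0.35 ± 0.11 (adjusted p = 0.00377). Its rise from P5 to adults was then 1.01 ± 0.10, a 2.01-fold difference (adjusted p = 9.06e-14). The direction of the P5 to P15 change of Fev therefore depended on that correction, and the adult excess over both younger ages did not.

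**Figure D2:**
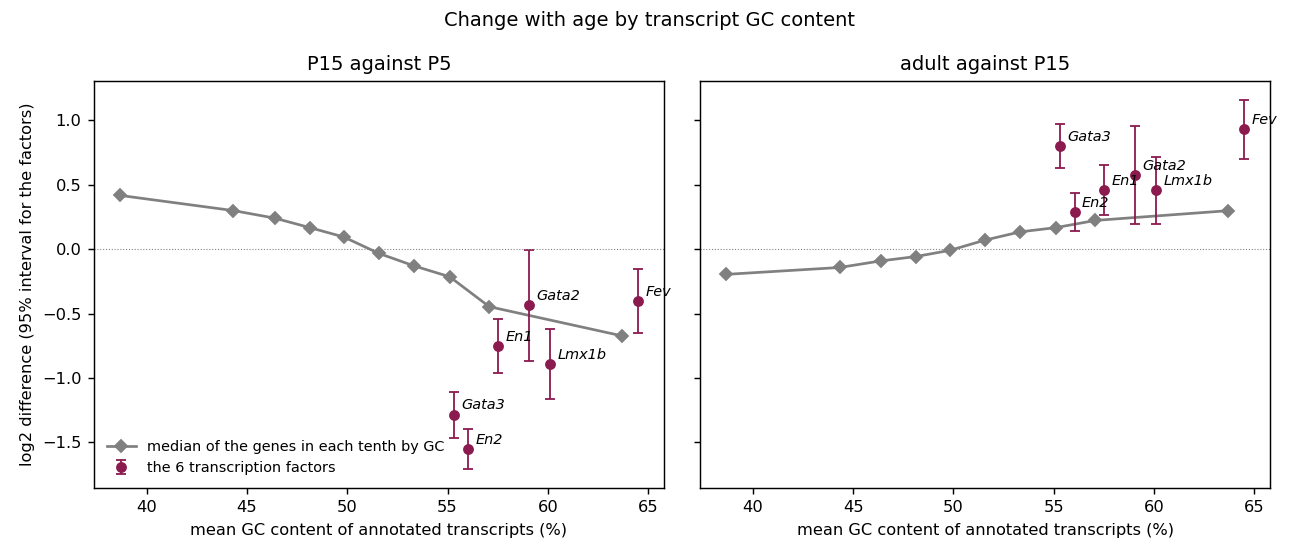
Log2 difference in level by mean GC content of the annotated transcripts, for P15 against P5 and for adults against P15. The grey line joins the medians of the genes in each decile by GC, from 0.42 down to -0.67 in the left panel, and the points are the 6 transcription factors with 95% intervals: Gata3 and En2 lie well under the line at P15, and Fev lies above it.

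Lmx1b had a low level at every age. It ran from 4.99 to 10.7 CPM at P5 (median 6.67), from 1.10 to 6.34 CPM at P15 (median 3.60) and from 2.58 to 6.36 CPM in adults (median 5.29). The highest P5 libraries stood above all others, but each age overlapped the next. Lmx1b fell from P5 to P15 by 0.89 ± 0.14 (adjusted p = 1.35e-07) and rose from P15 to adults by 0.46 ± 0.13 (adjusted p = 0.00197). In adults it was still lower than at P5 (log2 -0.43 ± 0.11, adjusted p = 0.000636). None of these 3 calls held with the GC correction, where the differences were -0.19, 0.18 and -0.01 (adjusted p of 0.143, 0.153 and 0.911).

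Gata3 fell after P5 and came back in part. Its levels were 25.3 to 35.5 CPM at P5 (median 31.7), 8.27 to 20.6 CPM at P15 (median 12.3) and 17.8 to 26.1 CPM in adults (median 22.6). No P15 library reached the lowest P5 library, and in F1r every P15 library, at 16.6 CPM or less, lay under every adult library. Gata3 fell 2.44-fold from P5 to P15 (log2 -1.29 ± 0.09, adjusted p = 4.42e-18), and rose by 0.80 ± 0.09 to adults (adjusted p = 1.49e-11). The adult level was 28.5% under that at P5 (log2 -0.48 ± 0.08, adjusted p = 1.23e-07). With the GC correction these values were -1.06 ± 0.08, 0.65 ± 0.08 and -0.41 ± 0.07, all called. In the annotation Gata3 overlaps an antisense gene and 2 further genes, of which 2 are in the tables, and the strand counted is not given, so reads of these genes could not be told apart.

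Gata2 rested on few reads. Its levels were 1.11 to 3.70 CPM at P5 (median 2.16), 0.386 to 3.51 CPM at P15 (median 1.59) and 1.49 to 3.88 CPM in adults (median 2.67), and all ages overlapped. It rose from P15 to adults by 0.57 ± 0.19 (adjusted p = 0.00731), but by 0.32 ± 0.17 with the GC correction (adjusted p = 0.0798). The fitted P15 against P5 difference of -0.44 ± 0.22 missed the threshold by edgeR before and after adjustment (unadjusted p = 0.0528, adjusted p = 0.0627). DESeq2 called it (-0.45 ± 0.21, adjusted p = 0.0442). In edgeR it was called without F1i P5 replicate 1 or 3, F1r P15 replicate 1, or F1i P15 replicate 2 or 5, at -0.49 to -0.58. The adult against P5 difference was 0.14 ± 0.18 (adjusted p = 0.469), and 0.49 ± 0.15 with the GC correction (adjusted p = 0.00279).

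En2 had the clearest change of the set. It ran from 75.5 to 93.0 CPM at P5 (median 82.1), from 18.2 to 40.0 CPM at P15 (median 28.7) and from 24.7 to 45.4 CPM in adults (median 35.5). Every P5 library lay above every later library, while P15 and adults overlapped. En2 fell 2.94-fold from P5 to P15 (log2 -1.55 ± 0.08, adjusted p = 1.71e-23) and was still 2.40-fold lower in adults (log2 -1.26 ± 0.07, adjusted p = 2.28e-22). The GC correction left these at -1.21 ± 0.06 and -1.11 ± 0.05, both called. The rise from P15 to adults was 0.29 ± 0.08 (adjusted p = 0.000821) and was not called with the correction (0.10 ± 0.06, adjusted p = 0.13). Of 4 cerebellar markers in the tables, 2 passed the filter on low counts, and both fell. The granule cell gene Barhl1 fell from a mean of 4.89 CPM at P5 to 0.614 CPM at P15, and Zic1 from 1.80 to 0.793 CPM. The Purkinje cell marker Pcp2 and the granule cell marker Cbln3 had means of 0.17 to 0.45 CPM over the ages. The summed level of the 4 was 3.91 to 10.7 CPM at P5, 0.773 to 3.99 CPM at P15 and 1.62 to 5.47 CPM in adults. Their part in the En2 fall was not tested.

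En1 fell after P5, by less than En2, and rose again to adults. Its levels were 16.2 to 26.4 CPM at P5 (median 20.6), 7.65 to 19.2 CPM at P15 (median 12.5) and 13.6 to 21.7 CPM in adults (median 17.0), with overlap throughout. It fell from P5 to P15 by 0.75 ± 0.11 (adjusted p = 1.27e-08) and rose to adults by 0.46 ± 0.10 (adjusted p = 6.73e-05). Both changes were called with the GC correction, at -0.32 ± 0.10 and 0.25 ± 0.09. The adult level was lower than at P5 (log2 -0.29 ± 0.09, adjusted p = 0.00326), and with the correction the difference was -0.07 ± 0.08 (adjusted p = 0.4).

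Over the set, 5 of 6 members fell from P5 to P15, where 40.9% of the 13637 genes tested fell. All 6 rose from P15 to adults, where 37% of genes rose. In adults against P5, Fev was higher (40.6% of genes were) and Gata3, Lmx1b, En1 and En2 were lower (41.5% of genes were). With the GC correction, 3 members fell (Gata3, En1 and En2) and Fev rose from P5 to P15, where 39.8% and 41.9% of genes fell and rose. From P15 to adults, 3 then rose (Fev, Gata3 and En1), against 36.5% of genes, and 0 fell, against 39.1%. In adults against P5, Fev and Gata2 were then higher (40.8% of genes) and Gata3 and En2 lower (42.1% of genes). Since such shares of all genes changed with age, the counts of members by themselves say little, and the sizes and ranges above are given for that reason.

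**Figure D3:**
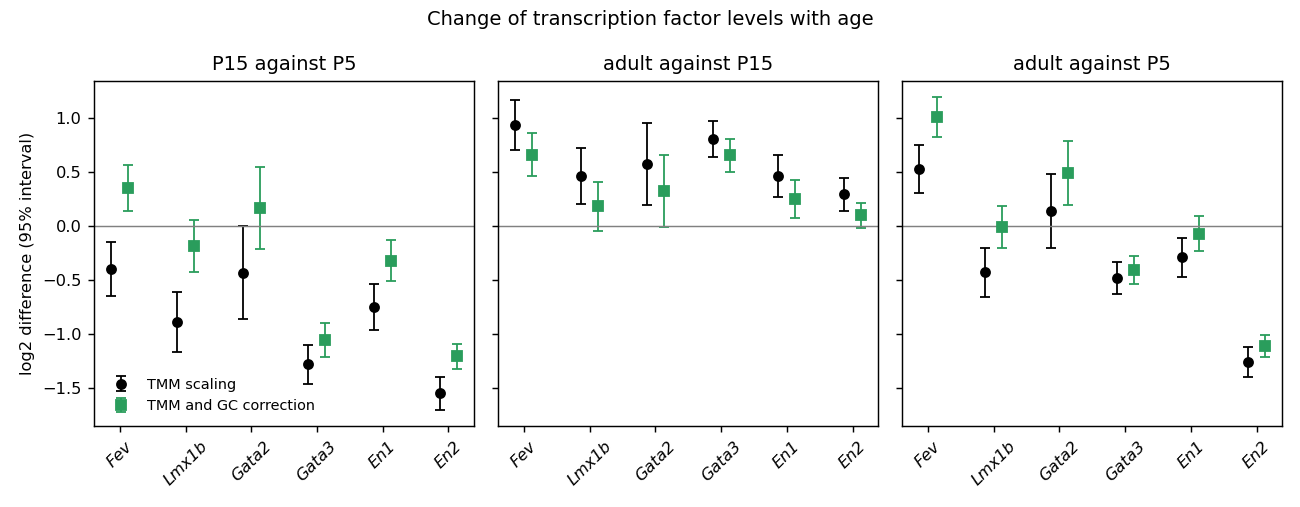
Log2 differences of the 6 transcription factors between ages, with 95% intervals, from the TMM-scaled fit (black circles) and with the GC correction added (green squares). The fall of Gata3 and En2 after P5 stays under 0 in both fits, while Fev at P15 goes from -0.40 to 0.35.

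Genes of proteins that work with these factors mostly fell from P5 to P15, with and without the GC correction. The median over all genes tested was 0.02 from P5 to P15, and 0.02 with the GC correction. Of all genes 40.9% fell, and 39.8% with the correction. Of 11 cofactor genes, 9 fell and 1 rose from P5 to P15 (median log2 -0.72), and with the GC correction the counts were again 9 and 1 (median -0.56). Tal1, the partner of GATA factors in GABA neurons, fell from a mean of 70.5 CPM at P5 to 25.4 CPM at P15 (log2 -1.48 ± 0.08, adjusted p = 2.28e-23) and was at 32.3 CPM in adults. Zfpm1 and Zfpm2, the FOG proteins that bind GATA factors, fell by 1.38 ± 0.11 and by 1.33 ± 0.09 (adjusted p of 3.38e-16 and 3.15e-19). Their changes with the GC correction were -0.97 for Tal1, -0.61 for Zfpm1 and -1.62 for Zfpm2, all called. Pbx3, a homeodomain partner of Engrailed and Hox proteins, was at 53.2 CPM at P5 and 32.0 CPM in adults (log2 -0.73 ± 0.06, adjusted p = 7.53e-16). From P15 to adults 7 of the 11 rose and 1 fell, with and without the correction. Zfpm1 and the LIM domain binding protein gene Ldb1 were among those that rose. Of all genes 37% rose there, and 36.5% with the correction.

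Genes of the midbrain-hindbrain boundary, the signalling centre that patterns En1 and En2, fell in the main from P5 to P15. Of 8 measured, 7 fell and 1 rose (median log2 -1.21), and the counts did not move with the GC correction (median -0.88). Spry1 and Spry2, inhibitors of FGF signalling, fell by 1.35 ± 0.11 and by 1.09 ± 0.09 (adjusted p of 6.5e-16 and 2.52e-15), and Otx2, a midbrain homeodomain gene, fell by 0.72 ± 0.08 (adjusted p = 8.08e-12). In adults against P5, 6 were lower and 0 higher with and without the correction, Pax5 among them (log2 -1.40 ± 0.18, adjusted p = 5.02e-10). Cnpy1, an FGF signalling modulator of the boundary, went from a mean of 103.6 CPM at P5 to 80.9 CPM at P15 and 64.2 CPM in adults.

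Genes that specify serotonin progenitors were mixed. Of 9 tested, 5 fell and 2 rose from P5 to P15, and 3 fell and 3 rose with the GC correction. Foxa2, a forkhead factor of the floor plate, fell from 5.31 to 1.18 CPM (log2 -2.17 ± 0.15, adjusted p = 1.74e-18) and Nkx6-1 from 28.1 to 12.4 CPM (-1.21 ± 0.09, adjusted p = 9.06e-17). Nkx2-2 dropped by 0.95 ± 0.11 (adjusted p = 8.97e-11), but with the correction its difference was -0.18 (adjusted p = 0.123). Gli1, a target of Hedgehog signalling, went the other way and reached 14.8 CPM in adults against 3.12 CPM at P5 (log2 2.20 ± 0.13, adjusted p = 2.22e-21). Among paralogues, Lmx1a fell from 2.86 to 0.874 CPM at P15 (-1.76 ± 0.20, adjusted p = 3.05e-11), and Gata4 and Gata6 had means of 0.0568 CPM or less at each age, with no Gata4 read in adults. Of the 3 paralogues tested, 2 fell at P15, or 3 with the GC correction.

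Most effector genes of serotonin neurons rose from P5 to P15. Of 10 measured, 8 rose and 1 fell (median log2 0.72), and with the GC correction 8 rose and 2 fell. Of 13637 genes tested 5798 rose, and 41.9% of genes rose with the correction. Over the same span 5 of the 6 factors fell, or 3 with the correction, where Fev rose. Tph2 went from a mean of 102.9 CPM at P5 to 547.6 CPM at P15 and 541.3 CPM in adults, a log2 rise of 2.40 ± 0.08 to P15 (adjusted p = 3.58e-32). Slc6a4, the serotonin transporter gene, went from 171.9 to 276.3 and 320.1 CPM, rising by 0.67 ± 0.08 to P15 (adjusted p = 5.52e-11). Maob, which encodes monoamine oxidase B, showed the largest rise of the list in both fits, 3.27 ± 0.11 (adjusted p = 3.05e-31) and 3.02 ± 0.10 with the correction. Slc22a3, a low-affinity monoamine transporter gene, fell by 0.20 ± 0.06 (adjusted p = 0.00233).

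The level of each factor was also set against the mean log2 level of Tph2 and Slc6a4. This pair itself rose 2.91-fold from P5 to P15 (log2 1.54), so that a gene of constant level falls by as much relative to it. Of 13584 genes with a mean of 1 CPM or more, the median gene changed by -1.51 relative to the pair, 95.3% were called lower at P15 and 95.7% in adults against P5. All 6 factors were lower too, and their count by itself therefore says nothing particular to them. Fev dropped 4.03-fold relative to this pair from P5 to P15 (log2 -2.01), with all P5 libraries between -1.57 and -1.25 and all P15 libraries between -4.25 and -2.79. In adults it lay between -2.78 and -2.30, which is 2.17-fold under P5 and 1.86-fold above P15. En2 dropped 8.53-fold (log2 -3.09) and Gata3 7.21-fold (log2 -2.85) to P15. For Lmx1b, En1 and Gata2 the drops were 5.51-fold, 4.98-fold and 4.15-fold. In a permutation test over libraries (two-sided, 18 comparisons), each of these drops had p = 1e-05, the smallest value it could give, and an adjusted p of 1.3e-05. For all 6 genes the P5 libraries lay above every P15 library, as they did for 76.6% of all genes, and for all but Gata2 above every adult library (82.4% of all genes). Gata2 overlapped between P5 and P15 with the GC correction, against Slc6a4 alone and against the whole effector list. The lowest P5 value of Gata2, -6.64, was under the highest adult value, -6.60.

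The size of these drops depended on the genes set below the line. Against Slc6a4 alone, the drop to P15 was 2.21-fold for Fev and 4.67-fold for En2, and against Tph2 alone 7.37-fold and 15.6-fold. With the GC correction the log2 drops against the pair were -1.17 for Fev and -2.68 for En2. All 6 drops to P15 and all 6 adult against P5 differences were called with the correction, as were 94.5% and 95.4% of all genes, and with either gene alone. From P15 to adults, 5 of 6 members rose relative to the pair, as 24.4% of all genes did (Fev by 0.90, Gata3 by 0.73, Gata2 by 0.59, Lmx1b by 0.40 and En1 by 0.39, adjusted p from 1.3e-05 to 0.009), and the En2 difference was 0.19 (adjusted p = 0.058). With the correction this was called for 2 of the 6, Fev (0.56) and Gata3 (0.56), against 22% of all genes.

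**Figure D4:**
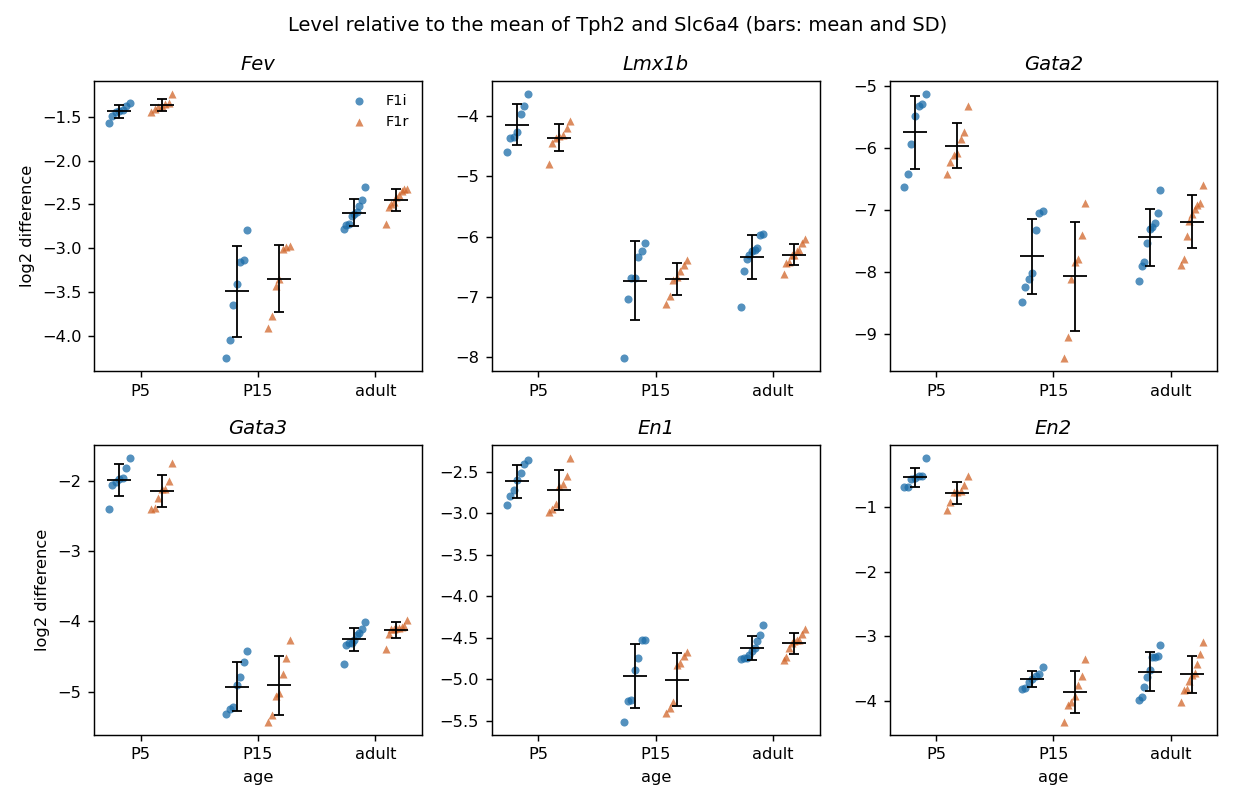
Log2 level of each transcription factor minus the mean log2 level of Tph2 and Slc6a4, for each library by age and cross, with bars for the mean and SD of each group. The P5 libraries stand above every P15 library in each panel. For Fev, adults lie between -2.78 and -2.30, between P5 and P15.

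Within an age and cross, libraries with more of one factor tended to have more of the others. With the mean of each of the 6 groups removed, 14 of the 15 pairs of members correlated over the 46 libraries by Pearson's r and 11 by Spearman's rho (permutation within groups, 21 relations tested). At the highest unadjusted p called among the members, 19.4% of the pairs of a member with any gene of 5 CPM or more had a positive relation by r, and 15% by rho. Many genes were closer to a member than the other members were. In 11 of 25 rankings of all genes by their r with a member, another member stood below place 1000, and the lowest place was 2616. Fev and En1 were the closest pair (Pearson r = 0.80, p = 1e-05, adjusted p = 0.00021; Spearman rho = 0.70, p = 5e-05; r = 0.73 without the 2 libraries farthest from the median of Fev). Their r reached 0.91 in P15 libraries, against 0.32 in those from P5 and 0.62 in adult ones. Gata2 with Lmx1b was the pair not called (r = 0.34, rho = 0.25, adjusted p = 0.055; r = 0.47 without the 2 extreme libraries). The relation differed in size between ages, which was not tested. At P15 all 15 pairs had r from 0.37 to 0.91, whereas at P5 Gata3 had r = -0.56 with En1, -0.69 with En2 and -0.52 with Lmx1b.

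At P15 these levels moved with the GC balance of the library, measured as the difference between the highest and lowest decile of genes by GC. Its r with the members at P15 was 0.90 for Gata3, 0.83 for En2, 0.79 for Fev, 0.67 for Gata2, 0.66 for En1 and 0.58 for Lmx1b. Over all libraries it was called for all 6 (r from 0.40 for En1 to 0.75 for En2, adjusted p from 0.00036 to 0.048 over 36 relations), with rho from 0.34 to 0.72 and 3 of the 6 called by rho. All 6 members lie in deciles 8 to 10 by GC, and Fev and Lmx1b are among the genes of the highest decile itself. A positive r was therefore partly built in. The share of all genes with such a relation is not given, so the count by itself says little. When the values were corrected for GC content, 5 of the 15 pairs were called by r and 3 by rho, against 8.26% and 3.83% of pairs with any gene. They were Fev with En1 (r = 0.73, adjusted p = 0.0001), with Gata3 (0.57, adjusted p = 0.0057) and with Lmx1b (0.49, adjusted p = 0.027), Gata3 with En1 (0.47, adjusted p = 0.046) and En1 with En2 (0.40, adjusted p = 0.046).

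Each factor was also tested against serotonin neuron genes, and differences between the factors in these correlations were not tested. Fev followed Tph2 with r = 0.46 (p = 0.0017, adjusted p = 0.0052; rho = 0.56, p = 0.0001; r = 0.46 without the 2 extreme libraries), and with r = 0.89 at P5 taken alone. En1 followed it with r = 0.38 (p = 0.015, adjusted p = 0.023; rho = 0.46, p = 0.0027; r = 0.35 without the 2). Gata2 (0.01), Gata3 (0.03), En2 (0.10) and Lmx1b (0.26, adjusted p = 0.072) did not pass the test against Tph2. Of 11505 genes, 4.73% had a positive r with Tph2 at the highest unadjusted p called. With the GC correction r was 0.68 for Fev, 0.55 for En1, 0.45 for Lmx1b and 0.40 for En2, all called, and 0.19 for Gata3 and 0.17 for Gata2, not called. The share of genes with a positive r was then 3.76%. Against the mean of the whole effector list, Fev had r = 0.66 (rho = 0.72, adjusted p = 0.00036), En1 0.57 (rho = 0.61, adjusted p = 0.0032) and Lmx1b 0.47 (rho = 0.45, adjusted p = 0.017). With the mean of the GABA neuron markers 4 of 6 members were called by r and 2 by rho. The share of all genes with such a relation is not given, so this count by itself says little. En2 had r = 0.68 there (rho = 0.61, adjusted p = 0.00045), and Lmx1b (0.44), Gata2 (0.42) and Fev (0.40) were called at lower r. En2 also ran against log2 total count (r = -0.43, rho = -0.50, adjusted p = 0.029), the latter most in adults (-0.66). In adults with the means of cross and second label number removed, Fev with En1 had r = 0.59 and Fev with the effector list 0.87, while En2 with log2 total count had r = -0.31.

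The genes whose levels were most like each member, by r over 46 libraries with group means removed, were named by rank alone. Among 11505 genes with a mean of 5 CPM or more, Stk32b (r = 0.89), Cplx2, Gm45837, Vat1 and Slc7a8 were closest to Fev, Slc6a4 had rank 9 and En1 rank 27. Closest to En1 was Fev itself, followed by Dlk1, Tns1, Vat1 and Gprin1. For Gata3 these were Phrf1 (0.88), Sf3a1, Gabbr2, Mboat7 and Timp2, and for En2 Vgf (0.89), Csnk1g2, Sipa1l3, Elfn2 and Podxl2. Gata2 had Nacc1 (0.70), Dscaml1, Gsk3a, Arhgef19 and Tmem151a, and Lmx1b had Vwa5b1 (0.73), Rimbp2, Ttc28, Dchs1 and Mrtfa. Such values were common, since 14.9% of all genes had r over 0.5 with Fev and 19.0% with En2. With the GC correction 4.15% had r over 0.5 with Fev, and the closest genes became Slc10a4, a vesicular transporter gene of monoamine and cholinergic neurons (r = 0.81), the cofactor synthesis gene Gch1, Gm45837, Slc6a4 and Vat1, named here after their values were seen. Slc10a4 was then also closest to En1 (r = 0.73), and second for Lmx1b.

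The total level of Fev differed between the crosses at P5, and no other difference of a member between the crosses was called at any age. Fev ran from 38.3 to 52.4 CPM in F1i (median 45.3, n = 7) and from 42.3 to 68.7 CPM in F1r at P5 (median 54.6, n = 7). The upper F1r libraries stood above all of F1i, and the ranges overlapped. The F1i level was 19.6% lower (log2 -0.31 ± 0.07, adjusted p = 0.00869), 1 member of 6 called where 1.17% of genes were. The call was not reached without F1r P5 replicate 7 (-0.27, adjusted p = 0.0531) or with DESeq2 (-0.30, adjusted p = 0.192), and with the GC correction the difference was -0.32 (adjusted p = 0.00347). Serotonin neuron effectors ran the same way: the fitted difference was under 0 for all 10 and called for Tph2 (-0.28 ± 0.06, adjusted p = 0.0117) and Slc6a4 (-0.20 ± 0.05, adjusted p = 0.035). At the same age all 7 oligodendrocyte markers were lower in F1i (median log2 -0.50) and all 3 markers of immature neurons were higher (median 0.17), and the part of cell makeup in the Fev difference was not tested.

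No member differed by cross at P15 (0 of 5 tested, against 0.0467% of genes; Gata2 was not tested) or in adults (0 of 6, against 0.111%) by edgeR. At an unadjusted p under 0.05 the count was 0 at both ages, and DESeq2 called 0 as well. The adult difference of Fev was -0.10 ± 0.09 and its interval ran from -0.27 to 0.08. The P5 value of -0.31 lay outside it, but the interval of that value, -0.45 to -0.18, overlapped it. The adult minus P5 change of the cross effect of Fev was 0.20 ± 0.23 (edgeR, unadjusted p = 0.391). At P15 the Fev interval ran from -0.67 to 0.40, and a difference as at P5 was not detectable there. A test of whether the cross effect itself changed with age called 0 of 6 members for P15 against P5 (0.0147% of genes), adults against P15 (0.0367%) and adults against P5 (0%), again with 0 at an unadjusted p under 0.05 and 0 by DESeq2.

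Both alleles of every member were counted at each age, and the CAST shares of Gata2 and Lmx1b, the members with the lowest levels, spread most between libraries. In adults the CAST share of Fev was 50.6 ± 1.78% in F1i (SD, n = 9) and 49.8 ± 2.10% in F1r (n = 9), with all 18 libraries between 45.8 and 53.1%. At P5 the shares of Fev were 38.2 to 53.1% in F1i (median 48.5%) and 43.6 to 51.8% in F1r (median 49.0%), and the ages overlapped. Gata3 had 52.5 ± 3.37% and 52.8 ± 2.42% at P5, En1 46.8 ± 5.12% and 47.8 ± 3.20%, and En2 51.9 ± 3.22% and 51.7 ± 2.35% (F1i and F1r, n = 7 each). For Lmx1b the shares were 51.8 ± 9.58% and 55.2 ± 9.61%. Gata2 had the widest spread, from 0 to 83.3% over all libraries, with a median of 14 (P5), 8 (P15) and 23 (adult) counts behind each share.

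**Figure D5:**
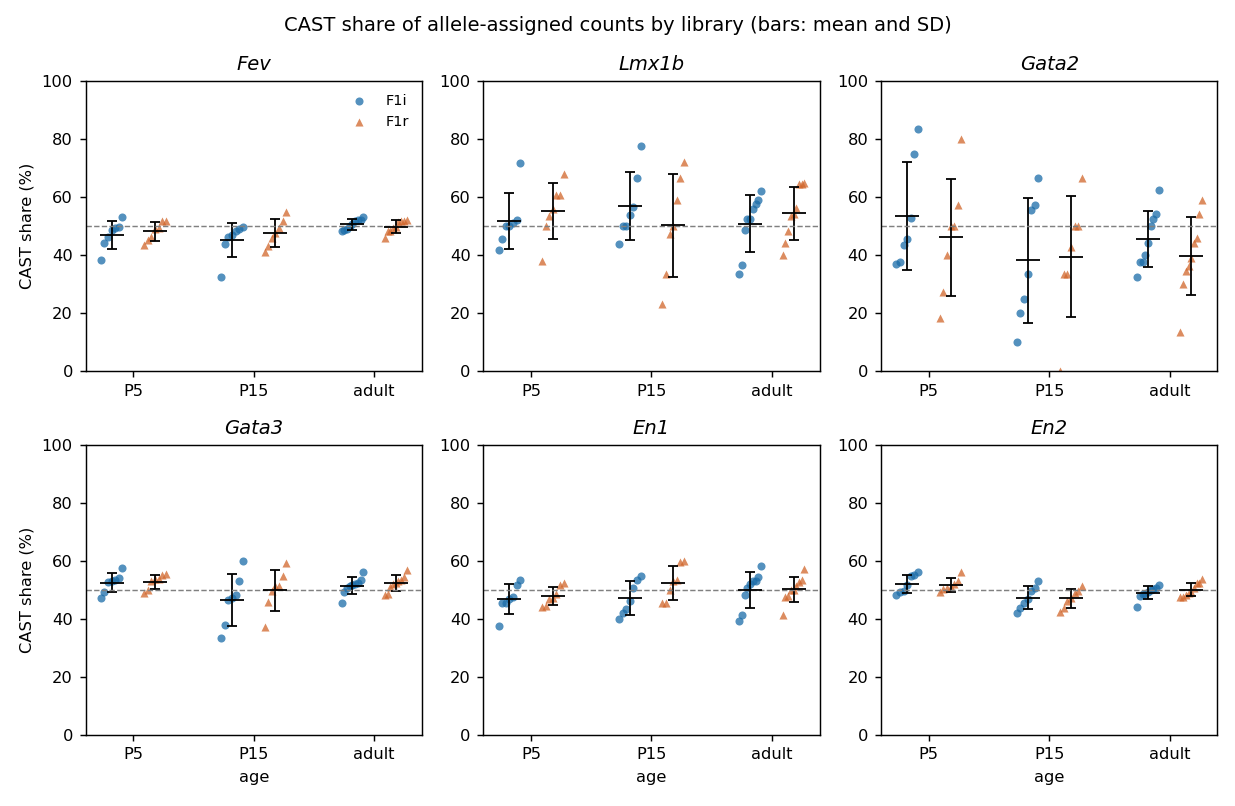
CAST share of the allele-assigned counts of each transcription factor, in percent, for each library by age and cross, with bars for the mean and SD of each group and a dashed line at 50%. Fev, En2 and Gata3 lie close to the line in adults, and Gata2, with the fewest reads, spreads most.

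Small strain effects, meaning the log2 CAST to C57 ratio with the crosses weighted alike, were called at each age. At P5, 4 of 5 members tested passed (58.4% of genes did): Fev (-0.15 ± 0.05, adjusted p = 0.0103) and En1 (-0.16 ± 0.07, adjusted p = 0.0337) with more C57, and En2 (0.11 ± 0.04, adjusted p = 0.0116) and Gata3 (0.16 ± 0.05, adjusted p = 0.0118) with more CAST. These calls were weak, since DESeq2 called 0 of them and limma 2, and En1 missed the threshold when any of 6 single libraries was left out (F1i replicates 1, 4, 6 and 7, and F1r replicates 4 and 7; differences of -0.13 to -0.16). En2 also missed it without F1r replicate 7 (0.08, adjusted p = 0.0619), and Fev without F1i replicate 5 (-0.10, adjusted p = 0.0606). At P15, Fev and En2 had more C57 (both -0.16 ± 0.06, adjusted p of 0.0206 and 0.0234), 2 of 5 tested against 58.4% of genes. The Fev call there was lost without F1i replicate 6 or F1r replicate 1 (both -0.13), and the En2 call without F1i replicate 1 or 7 or F1r replicate 2 or 4 (-0.13 to -0.14).

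In adults 1 of 6 members passed, against 67.8% of genes. Gata2 had more C57 (-0.44 ± 0.15, adjusted p = 0.0104), with CAST shares of 32.4 to 62.5% in F1i (median 44.0%) and 13.6 to 58.8% in F1r (median 38.9%). Gata3 was at 0.09 ± 0.04 (adjusted p = 0.0616) and passed when any of 4 libraries was left out (F1i replicates 2_1 and 3_2, F1r replicates 5_1 and 7_3; 0.10 to 0.11). For Fev, En1 and En2 the adult ratios were 0.02 ± 0.03, 0.01 ± 0.06 and -0.02 ± 0.03. The interval for Fev ran from -0.03 to 0.07.

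The allele balance of En2 changed between P5 and P15. Its CAST share was 51.8 ± 2.71% at P5 (n = 14) and 47.1 ± 3.45% at P15 (n = 14), a change of the strain effect of -0.27 ± 0.07 (adjusted p = 0.003), which limma called too. Fev went from 47.6 ± 3.98% at P5 to 50.2 ± 1.93% in adults (0.17 ± 0.06, adjusted p = 0.0278), which limma did not call. These were 1 of 5 members for P15 against P5 (18.7% of genes) and 1 of 5 for adults against P5 (29.6%). For adults against P15 it was 0 of 5 (15.5% of genes), with 2 at an unadjusted p under 0.05 and 0 by limma.

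No effect of which parent passed on the allele was called for any member. The parental effect, the F1i minus F1r difference in log2 CAST over C57 divided by 2, was called by edgeR for 0 of 5 members at P5 (2.71% of genes), 0 of 5 at P15 (0.742%) and 0 of 6 in adults (2.71%). DESeq2 and limma called 0 as well, and 0 members had an unadjusted p under 0.05. The adult interval of Fev was -0.03 to 0.08. Changes of this effect were called for 0 of 5 members between P5 and P15 (0.153% of genes), P15 and adults (0.129%) and P5 and adults (0.241%), with 0 at an unadjusted p under 0.05 and 0 by limma. At P5 and P15 Gata2 did not pass the filter on reads for the allele fits. With a lower minimum, a mean summed count of 5, its parental effects were 0.16 ± 0.23 at P5 and -0.10 ± 0.28 at P15 (adjusted p of 0.955 and 1). Its strain effects were then -0.06 ± 0.23 (adjusted p = 0.857) and -0.59 ± 0.27 (adjusted p = 0.0625).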

How the data were processed

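The authors deposited 3 tables of read counts per gene and allele, 92 columns in all, since each of the 46 libraries has 1 column for either allele. Novoalign and the build mm9 are named in the submitters' processing notes. How reads were assigned to alleles, the strand counted and the handling of reads with several matches are not given in the sources used here. Library totals were 3692778 to 13085952 counts, which limits precision most for Gata2 and Lmx1b. Gene symbols and transcript GC content came from the GENCODE M21 annotation.

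For totals, both alleles were summed, scaled by TMM and tested by edgeR 4.0.16 (R 4.3.3), by its quasi-likelihood test after filterByExpr. Allele effects were fitted by edgeR on 1 column per library and allele with a term for each library, keeping genes whose summed count averaged at least 20. Adjusted p-values are Benjamini-Hochberg over all genes, called at 0.05. Intervals are at 95% by a normal approximation, so they can be somewhat narrower than the edgeR test implies. Log2 levels for ratios and correlations used a prior count of 1, and permutation tests were two-sided with 100000 draws. Shares of all genes for these tests used 10000 draws. DESeq2 1.42.0 and limma 3.58.1 were alternatives. The GC correction, chosen after the data were seen, took off each library's median deviation in 20 classes of transcript GC content, over genes with a mean of 5 CPM or more. The fits were tested on simulated data with known changes.

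Other genes named were the up to 3 of a list with the smallest adjusted p in a contrast, any gene of the effector list, and the 5 genes most like each member. Genes named outside this rule (Pcp2, Cbln3, Gata4, Gata6, and values of a named gene in further contrasts or after GC correction) were chosen after their values were seen. The members and lists were chosen with earlier results of these data known. The labels do not say that each library came from a separate animal, so p-values measure the spread between libraries. By a correlation of deviations from the group means, libraries of the same number in F1i and F1r did not pair at P5 (r from -0.08 to 0.05). At P15 r was 0.66 for number 1 and 0.57 for number 6, and from -0.32 to -0.04 for the other numbers. Adult libraries carry a second label number, and the means of the same second number did go together (r of 0.76, 0.53 and 0.46). These were means over libraries, unlike the single libraries compared at P5 and P15. The tests between adults and younger ages took no account of the second number, so their p-values may be too small.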

Additional observations from a re-analysis of the deposited data

Results flagged for a closer look

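Among 72 groups of libraries checked for a single value far from the rest, 2 held one, where chance flags about 1 in 20. The CAST share of Fev was 32.4% in F1i P15 replicate 6, against 43.8 to 49.6% in the other 6 libraries of that group. The CAST share of Lmx1b was 71.9% in F1i P5 replicate 5, against 41.7 to 52.2% in the others.

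For 2 members the allele balance differed between ages by the test of that difference. The strain effect of Fev was higher in adults than at P5 by 0.17 (log2 CAST over C57, edgeR adjusted p = 0.0278), and limma did not call it (0.15, adjusted p = 0.166). The strain effect of En2 at P15 minus that at P5 was -0.27 (edgeR adjusted p = 0.003).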

How the results depend on the processing

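Of 760 values for single genes and pairs under the alternatives, 719 kept their direction and side of the threshold and 41 did not, and with 1 library left out 2384 of 2408 did and 24 did not. Counts of members stayed within 1.5 times in 115 of 125 and 402 of 414 cases. The GC correction had the most effect, and beyond it the cause of each change was not tested. With it, the P5 to P15 change of Fev reversed to 0.35, the members called from P15 to adults went from 6 to 3, those changed relative to Tph2 and Slc6a4 from P15 to adults from 5 to 2, and the correlated pairs from 16 to 9 of 21. With DESeq2, the members called were 0 for the cross at P5, 0 for strain at P5 and 1 for strain at P15. With limma they were 2 for strain at P5, 2 for strain in adults and, in a fit of all ages added after the data were seen, 0 for the strain change from P5 to adults. A minimum mean count of 50 left Gata2 out in adults, with 0 called for strain. Leaving out 1 library gave 0 to 1 members for the cross at P5, 1 to 2 for strain in adults, 1 to 2 for strain at P15 and 2 to 4 for strain at P5. Without F1r P5 replicate 7 the cross count at P5 was 0. The replicate block changed no member's call (1 for the cross at P5, 0 at P15 and 0 in adults), but over all genes the adult cross count went from 15 to 77. That adult count was 55 with DESeq2, 28 with the GC correction and 306 with counts summed over the first label number. Over all genes DESeq2 called 10 for the cross at P15 (6 with edgeR), and 11, 1 and 4 for the change of the cross effect (5, 0 and 2 with edgeR). Parental calls over all genes were 344 in adults with edgeR, 138 with DESeq2 and 90 with limma. At P5 they were 327, 120 and 109, and for the change from P5 to P15 19 with edgeR and 35 with limma. Depth limits the allele shares of Gata2 and Lmx1b most.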
